A study of Mus musculus with 15 samples.

Results

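A set of 10 genes that mark Kupffer cells, the resident macrophages of the liver, was followed through bulk RNA-seq of whole mouse liver. The genes were taken by name: Clec4f, Timd4, Cd5l, Vsig4, Marco, Cd163, Folr2, Emr1 (the gene of F4/80, now called Adgre1), Cd68 and Csf1r. All 10 were found by symbol among the 37991 genes of the count table, and all 10 were among the 14258 genes with enough counts to be tested. The study asked how loss of S6 kinase 1 (S6K1, gene Rps6kb1), a kinase downstream of mTOR, alters the ageing liver. Female C57BL/6 mice formed 3 groups of 5 livers, with 1 library a mouse: S6K1 wild-type mice at 90 days (young WT), S6K1 wild-type mice at 600 days (old WT) and S6K1 knockout mice at 600 days (old KO). The knockout is germline and present in every cell, macrophages included, and the mice came from heterozygous matings and ate standard chow. Young KO livers were not analysed here, so a genotype difference at 90 days was not measured.

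Kupffer cells line the sinusoids and clear bacteria, aged red blood cells and dying cells from portal blood. Most are seeded before birth and renew themselves locally, and they depend on signalling through the CSF1 receptor and on the transcription factor PU.1. When they are lost, blood monocytes can enter the niche and take on part of the same expression programme, with Timd4 acquired late. Several of the genes are therefore close to restricted to Kupffer cells in mouse liver (Clec4f above all), whereas Emr1, Cd68 and Csf1r are shared with other macrophages and monocytes.

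The libraries held between 21801754 and 38065359 gene counts. Levels are given as CPM, gene counts scaled to a common library size with TMM factors, and a gene was called changed where the edgeR quasi-likelihood test gave a Benjamini-Hochberg adjusted p below 0.05 over all 14258 genes. Rps6kb1 checked the labels: its level was 38.3 ± 3.14 CPM in young WT, 38.4 ± 4.21 CPM in old WT and 17.0 ± 2.23 CPM in old KO (SD, n = 5), with every old KO library below every old WT library (log2 fold change -1.17, SE 0.0979, adjusted p = 8.54e-06). Hepatocyte markers summed to between 98371 and 161689 CPM. The library of old WT 7 stood apart from the other old livers on the second principal component (score -44.8, against -16.1 to 30.0 in the other 9 old livers).

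Old S6K1 KO livers carried less Kupffer cell marker mRNA than old WT livers. The log2 fold change was below 0 for 10 of 10 markers and lay between -1.92 and -1.02, with a median of -1.19 against 0.0008 over all genes tested. The test called 5 of them lower: Clec4f, Cd5l, Vsig4, Folr2 and Cd68. Over all genes only 60, or 0.421%, were called lower in this comparison, so the called share of the markers was far above the background. The markers are not independent of each other, since their levels varied together within groups (median correlation 0.81). They were also chosen with earlier results of these data known. In 6 of the 10, the 5 called markers and Csf1r, no old KO library reached the range of old WT, which 2.08% of all genes tested did. In a bulk library fewer Kupffer cells and less of each mRNA per cell cannot be told apart.

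With age the fitted changes of the markers had both signs, and whether they differed between markers was not tested. In old WT against young WT livers 8 of 10 had a log2 fold change above 0 and 2 below, with a median of 0.33, and 0 were called higher against a background of 9.92%. One was called lower, Cd163, against a background of 8.91%. No marker separated old WT from young WT without overlap, in a table in which 5.67% of genes lay wholly lower and 5.78% wholly higher.

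**Figure D1:**
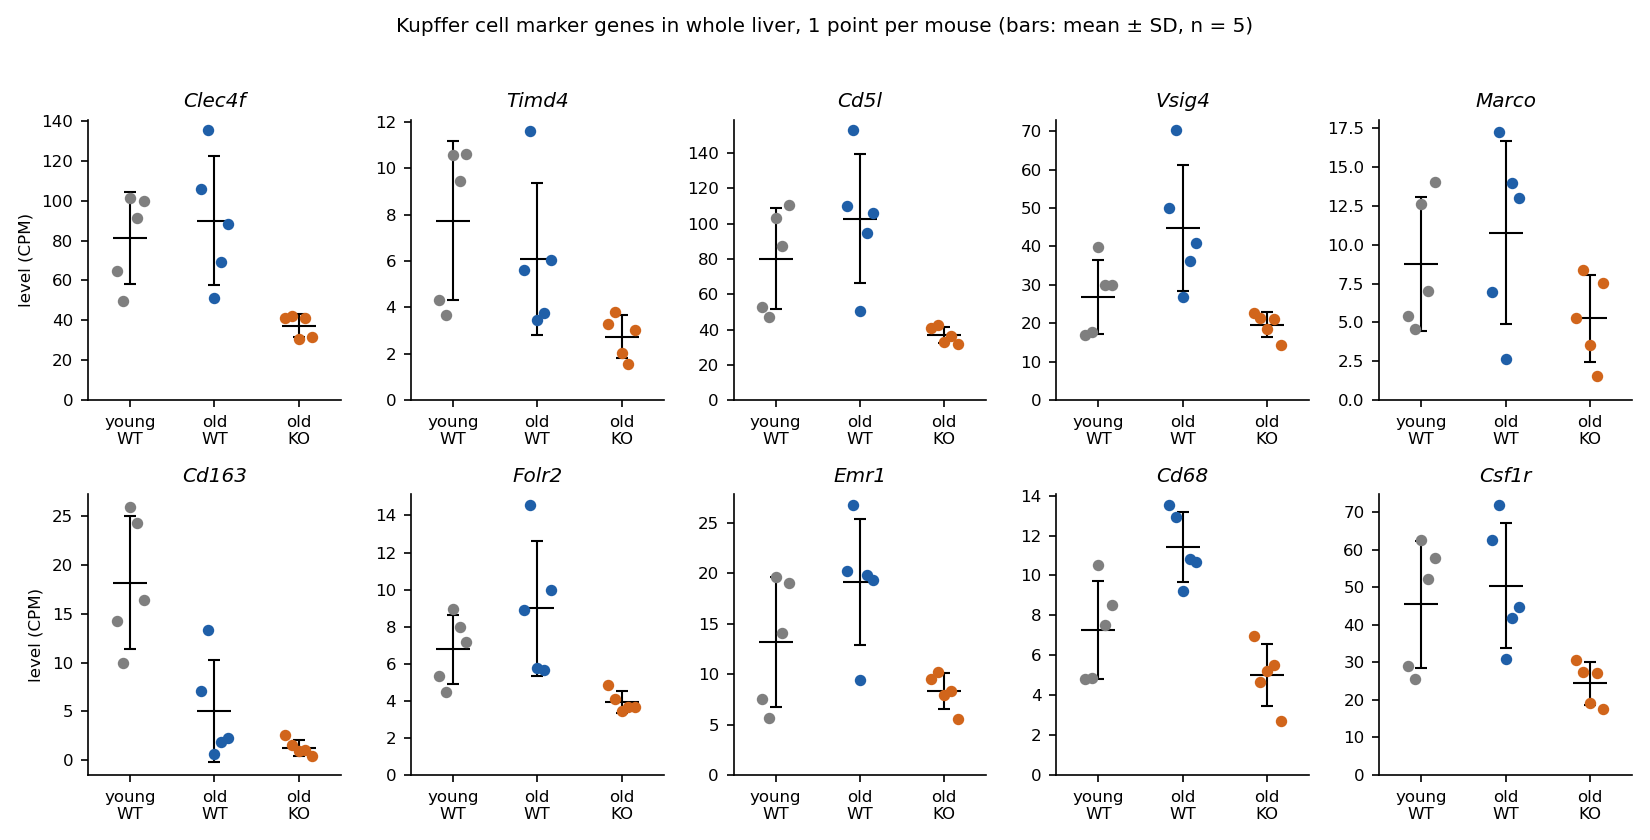
Level of each of the 10 markers in CPM on a linear axis, with 1 point per mouse and a bar for the group mean ± SD (n = 5). The old KO points of Clec4f lie between 30.5 and 42.5 CPM and those of old WT between 51.4 and 135 CPM, while the 5 old WT points of Cd163 spread from 0.656 to 13.3 CPM.

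The regions just before the transcription starts of 3 markers that were lower in old KO livers are shown because PU.1, the factor that macrophages depend on, binds sites with the core letters GAGGAA. The RefSeq promoter table (GRCm38.p6; 250 bases before and 50 after each start) had entries for 8 of the markers, in 9 windows, and lacked Emr1 and Csf1r. The letters GAGGAA, read on both strands, occurred in 4 of the 9 windows, those of Cd5l, Vsig4, Marco and Cd68, and in 28.3% of the 32851 windows of all genes. Each printed run is the 250 bases before the start, 5′ to 3′ on the gene's strand. It was located by exact match in NCBIM37 (mm9), the build of the counts, and the capitals mark GAGGAA or its reverse complement TTCCTC. Cd5l lies at chr3:87161553-87161802 on the plus strand, Vsig4 at chrX:93488778-93489027 on the minus strand and Cd68 at chr11:69479673-69479922 on the minus strand.
Cd5l: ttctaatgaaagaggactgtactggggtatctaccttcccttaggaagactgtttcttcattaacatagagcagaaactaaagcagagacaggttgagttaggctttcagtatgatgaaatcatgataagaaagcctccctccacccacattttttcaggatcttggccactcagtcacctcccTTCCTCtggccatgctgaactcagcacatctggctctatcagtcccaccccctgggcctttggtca
Vsig4: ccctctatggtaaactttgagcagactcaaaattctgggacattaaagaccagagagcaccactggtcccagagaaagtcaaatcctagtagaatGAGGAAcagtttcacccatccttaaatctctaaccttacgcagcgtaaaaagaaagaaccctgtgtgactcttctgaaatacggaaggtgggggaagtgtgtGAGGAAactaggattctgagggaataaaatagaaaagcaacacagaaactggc
Cd68: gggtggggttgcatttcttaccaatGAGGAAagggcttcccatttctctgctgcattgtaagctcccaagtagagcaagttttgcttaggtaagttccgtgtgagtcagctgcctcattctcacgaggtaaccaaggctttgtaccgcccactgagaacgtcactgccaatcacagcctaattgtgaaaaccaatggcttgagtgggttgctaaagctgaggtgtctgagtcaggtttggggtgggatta
The printed window of Cd5l holds 1 match, on the opposite strand, that of Vsig4 holds 2 and that of Cd68 holds 1. A match of letters is a description and not a binding site. The motif was not a shared feature of the called markers, since the windows of Clec4f and Folr2 held no match.

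Among the genes closest to Kupffer cell identity, Clec4f encodes a C-type lectin of the cell surface that binds galactose and N-acetylgalactosamine. The gene spans chr6:83594536-83606181 on the minus strand (NCBIM37), and the counts are over its exons. Its levels in young WT livers 1, 2, 3, 4 and 6 were 64.6, 49.8, 101, 91.1 and 99.98 CPM. In old WT livers 1, 4, 5, 7 and 10 they were 106, 135, 51.4, 69.2 and 88.5 CPM, and in old KO livers 1, 2, 4, 5 and 6 they were 41.3, 42.5, 30.5, 41.3 and 31.7 CPM. Every old KO liver was below every liver of both other groups, whereas the young and old WT ranges overlapped. Clec4f fell by 1.27 on the log2 scale in old KO against old WT (SE 0.238, adjusted p = 0.0292), which is a level 58.4% lower. The age difference was 0.15 (SE 0.233, adjusted p = 0.697).

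Timd4 encodes a receptor for phosphatidylserine on dying cells and marks long-lived Kupffer cells. The gene spans chr11:46624302-46657834 on the plus strand. Its levels were 4.34, 3.69, 10.6, 9.46 and 10.6 CPM in young WT livers, 5.62, 11.6, 3.46, 3.78 and 6.03 CPM in old WT livers and 3.29, 3.81, 2.06, 1.55 and 3.02 CPM in old KO livers, in the same order of mice. In all, 4 of the 5 old KO livers lay below the whole old WT range, old WT 4 stood well above the other old WT livers, and the young WT livers split into 2 low and 3 high ones. The log2 fold change was -1.14 in old KO against old WT (SE 0.377, adjusted p = 0.217) and -0.34 with age (SE 0.358, adjusted p = 0.538), neither of which passed the test.

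Cd5l encodes a secreted scavenger-type protein, also called AIM, that circulates bound to IgM. The gene spans chr3:87161803-87174996 on the plus strand. The young WT livers held 52.8, 47.4, 103, 87.6 and 110.3 CPM, the old WT livers 109.8, 153, 50.5, 94.8 and 106 CPM, and the old KO livers 41.1, 42.5, 32.8, 36.6 and 32.1 CPM. Old KO values were tightly grouped and lay below all 10 WT livers. Cd5l fell by 1.47 on the log2 scale in old KO against old WT (SE 0.263, adjusted p = 0.0247), the largest fall among the 5 called markers. Its age difference was 0.36 (SE 0.256, adjusted p = 0.349).

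Vsig4 encodes the complement receptor CRIg, through which Kupffer cells bind C3-coated bacteria. The gene spans chrX:93442542-93488777 on the minus strand. Levels were 17.0, 17.8, 39.9, 30.0 and 29.9 CPM in young WT, 49.95, 70.2, 26.8, 36.3 and 40.8 CPM in old WT and 22.6, 21.4, 18.7, 21.2 and 14.3 CPM in old KO livers. The old KO values fell below the old WT range but largely inside the young WT range. Vsig4 fell by 1.19 in old KO against old WT (SE 0.255, adjusted p = 0.0484). Old WT was 0.74 above young WT (SE 0.251, adjusted p = 0.0508), just short of the threshold, with 3 of the 5 old WT livers above the young WT range.

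The scavenger and uptake receptors varied more. Marco, a class A scavenger receptor for bacteria and particles, was between 4.61 and 14.0 CPM in young WT (median 6.99), between 2.62 and 17.2 CPM in old WT (median 13.0) and between 1.55 and 8.39 CPM in old KO (median 5.32). The 3 ranges overlapped, and neither the genotype difference of -1.02 (SE 0.479, adjusted p = 0.424) nor the age difference of 0.30 (SE 0.466, adjusted p = 0.684) passed.

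Folr2, the folate receptor beta of tissue macrophages (chr7:108988512-108993831 on the minus strand), gave 5.34, 4.46, 8.93, 7.99 and 7.16 CPM in young WT, 8.90, 14.6, 5.78, 5.64 and 9.997 CPM in old WT and 4.87, 4.10, 3.43, 3.65 and 3.67 CPM in old KO livers. All 5 old KO livers were below all 5 old WT livers, and old WT overlapped young WT. Folr2 fell by 1.18 in old KO against old WT (SE 0.251, adjusted p = 0.0459), and the age difference was 0.41 (SE 0.242, adjusted p = 0.255).

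Cd163 encodes the receptor that takes up haemoglobin bound to haptoglobin (chr6:124254669-124280545 on the plus strand), and it had the largest fitted fold changes of the 10 markers in all 3 comparisons. The young WT livers held 14.3, 9.98, 25.9, 24.3 and 16.5 CPM, the old WT livers 7.06, 13.3, 0.656, 1.83 and 2.28 CPM, and the old KO livers 2.58, 1.53, 0.899, 1.05 and 0.418 CPM. Old WT livers split, with old WT 1 and old WT 4 near or inside the young range and the other 3 down among the old KO livers. Cd163 fell by 1.86 on the log2 scale with age (SE 0.572, adjusted p = 0.0336), the only marker called in that comparison. The difference between old KO and old WT was -1.92 (SE 0.647, adjusted p = 0.223) and did not pass. Old WT alone covered a 20.3-fold range. Against young WT, Cd163 fell by 3.78 in old KO (SE 0.653, adjusted p = 0.00109), and the groups did not overlap. The counts behind these levels ran from 327 to 808 in young WT, from 22 to 375 in old WT and from 9 to 69 in old KO libraries. The age call was lost, with adjusted p up to 0.0702, when young WT 1, 3 or 4 or old WT 5, 7 or 10 was left out, and was kept without each of the other 4.

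The 3 markers shared with other macrophages followed the Kupffer cell genes in the genotype comparison. Cd68, a lysosomal glycoprotein of macrophages (chr11:69477715-69479655 on the minus strand), was at 4.82, 4.89, 10.5, 7.50 and 8.54 CPM in young WT, 13.5, 12.9, 9.21, 10.8 and 10.7 CPM in old WT and 6.96, 4.68, 5.23, 5.49 and 2.69 CPM in old KO livers. Relative to its mean, old WT was the tightest of the 3 groups for this gene, and all of its livers were above all old KO livers. Cd68 fell by 1.18 in old KO against old WT (SE 0.238, adjusted p = 0.0384). The age difference was 0.66 (SE 0.232, adjusted p = 0.0578), where 4 of the 5 old livers exceeded the young range, but this missed the threshold.

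Emr1, the gene of the F4/80 antigen, ranged from 5.68 to 19.6 CPM in young WT (median 14.1), from 9.42 to 26.7 CPM in old WT (median 19.8) and from 5.57 to 10.2 CPM in old KO (median 8.30). Its old KO and old WT ranges met through old WT 5 alone, the lowest old WT library. The genotype difference was -1.20 (SE 0.322, adjusted p = 0.118) and the age difference 0.54 (SE 0.314, adjusted p = 0.245).

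Csf1r, the receptor for CSF1 and IL-34 that keeps macrophages alive, ranged from 25.6 to 62.6 CPM in young WT (median 52.2), from 30.9 to 72.0 CPM in old WT (median 44.7) and from 17.5 to 30.7 CPM in old KO (median 27.2). Old KO and old WT did not overlap, although the difference of -1.04 did not pass the test over all genes (SE 0.269, adjusted p = 0.101). The age difference was 0.15 (SE 0.264, adjusted p = 0.725). Csf1r is the only marker whose exons overlap another annotated gene, Hmgxb3 on the opposite strand, with 871 shared bases. The strand setting of the counting was not stated, and Hmgxb3 itself had a genotype difference of -0.03 (SE 0.0851, adjusted p = 0.939).

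**Figure D2:**
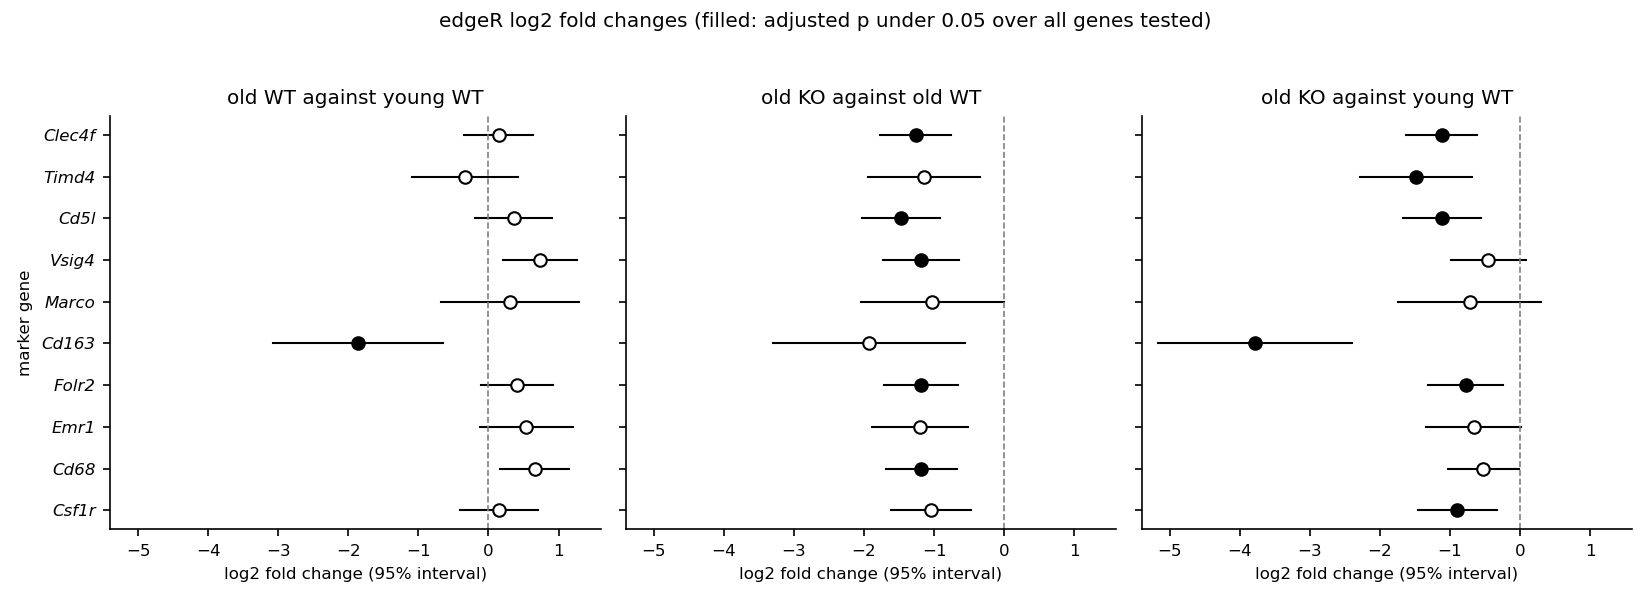
Log2 fold change of each marker (horizontal axis) with its 95% interval in the 3 comparisons, where filled points have an adjusted p below 0.05 over all genes tested. All 10 points lie left of 0 for old KO against old WT, and Cd163 at -1.86 is the only filled point for old WT against young WT.

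The genotype calls were close to the threshold and depended on single livers. All 10 markers had an unadjusted p below 0.05 in old KO against old WT, as did 11.6% of all genes tested, and the 5 adjusted p values ran from 0.0247 to 0.0484. Without old WT 1, old WT 4, old KO 2, old KO 4, old KO 5 or old KO 6 the count of called markers dropped from 5 to 0. It was 1 without old WT 10, 3 without old WT 7 or old KO 1 and 5 without old WT 5. Young livers share the fit of all 15 libraries, and without young WT 4 or 6 the count was 2 or 3. All log2 fold changes stayed below 0. Over the 10 omissions of old livers that of Clec4f lay between -1.41 and -1.08, that of Cd5l between -1.64 and -1.29, that of Vsig4 between -1.33 and -0.97, that of Folr2 between -1.31 and -0.95 and that of Cd68 between -1.33 and -1.03. The uncalled Cd163 moved most, between -2.34 and -1.17, the latter without old WT 4, while Timd4 lay between -1.30 and -0.78 and Marco between -1.28 and -0.79. Limma voom called only Cd5l, whereas DESeq2 called 7, the 5 together with Emr1 and Csf1r.

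The third comparison the groups allow, old KO against young WT, combines age and genotype and shares its libraries with the comparisons above. All 10 markers had a log2 fold change below 0 (median -0.83) and 6 were called lower, against a background of 11.3%. Clec4f fell by 1.12, Timd4 by 1.48, Cd5l by 1.11, Cd163 by 3.78, Folr2 by 0.78 and Csf1r by 0.89, with adjusted p values from 0.00109 to 0.0352. Clec4f, Cd5l and Cd163 had no overlap between the groups, which 6.56% of all genes showed in the same direction. The calls of Folr2 and Csf1r were the weaker ones, with adjusted p values up to 0.0874 and 0.0666 when 1 library was left out. Both calls were lost without young WT 3, 4 or 6 or old KO 4 or 6, and that of Folr2 also without old KO 2 or 5. Vsig4 (-0.45, adjusted p = 0.209), Cd68 (-0.52, adjusted p = 0.123), Emr1 (-0.66, adjusted p = 0.149) and Marco (-0.72, adjusted p = 0.293) did not pass.

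The markers differed in abundance, in a similar order in the 3 groups. Per kilobase of exon, the mean level in old WT livers was 50.4 CPM for Cd5l, 36.4 CPM for Clec4f and 30.2 CPM for Vsig4, then 9.64 CPM for Csf1r. The step from Vsig4 to Csf1r was the only one between neighbours in old WT whose ranges did not overlap. Below it lay Cd68 at 9.09, Folr2 at 8.50, Emr1 at 5.89, Marco at 5.42, Timd4 at 2.81 and Cd163 at 1.12 CPM per kilobase. The same 3 genes led in young WT, where no neighbouring ranges were separate, and in old KO. In old KO livers Vsig4 (13.2 CPM per kilobase) was again separate from Csf1r (4.67), and Timd4 (1.26) from Cd163 (0.288). Cd163 was ninth of the 10 in young WT at 4.05 CPM per kilobase, close to Emr1 at 4.07.

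Within each group the levels of the markers varied from mouse to mouse largely together. Old WT 4 was the highest old WT liver for 9 of 10 markers and old WT 5 the lowest for 9. Among young livers young WT 3 was highest for 7 and young WT 2 lowest for 8, and among old KO livers 1 and 2 were each highest for 5 while old KO 6 was lowest for 6. Summed over the markers, the level was between 174 and 395 CPM in young WT, between 191 and 527 CPM in old WT and between 119 and 168 CPM in old KO. The old KO livers thus lay below both WT groups in sum and spanned a narrower range. The correlation of log2 levels after removing group means, across the 15 libraries and the 45 pairs of markers, had a median of 0.81 and ran from 0.20 to 0.96. All points in such a correlation share the library and its scaling.

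**Figure D3:**
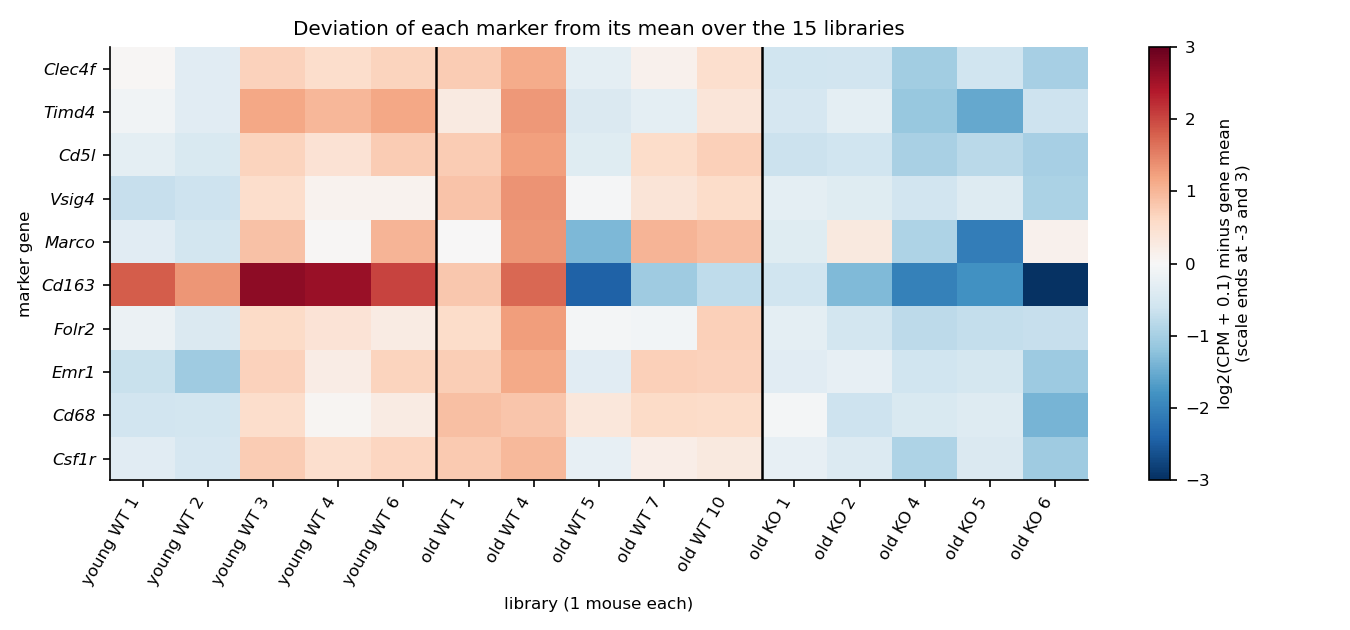
Each marker's log2(CPM + 0.1) minus its mean over the 15 libraries, as colour, with markers as rows and libraries as columns in their 3 groups. Old WT 4 is high and old WT 5 low for nearly every marker, and Cd163 is below its young WT range in 4 of the 5 old WT livers and in all 5 old KO livers.

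Ratios between markers within a library compare their balance and not their amount. In young WT livers the log2 ratio of Clec4f to Cd68 was 3.48 ± 0.191 and in old WT livers 2.90 ± 0.352 (SD, n = 5), a difference of -0.58 (exact two-sided permutation test, p = 0.0238, adjusted p = 0.0714 over 6 ratio tests). The log2 ratio of Timd4 to Cd68 was 0.02 ± 0.308 in young WT and -1.02 ± 0.549 in old WT, a difference of -1.04 (exact permutation p = 0.0159, adjusted p = 0.0714). Neither passed after adjustment, and the smallest p that 5 against 5 mice can give is 0.00794. Of the 10 omissions of 1 library, only that of old WT 4 brought both to an adjusted p of 0.0476, with differences of -0.70 and -1.26. Over all 10 the adjusted p reached 0.143, and the smallest differences were -0.47 and -0.92. Vsig4 kept pace with Cd68, with a difference of 0.03 (exact permutation p = 0.841).

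Between old KO and old WT livers the same ratios differed by 0.02 for Clec4f, 0.17 for Timd4 and 0.09 for Vsig4, each with an exact permutation p of at least 0.643 and an adjusted p of 0.913. The old KO ratios of Timd4 to Cd68 ranged from -1.76 to 0.16 and those of old WT from -1.49 to -0.15, so a difference well below the spread could not be seen.

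**Figure D4:**
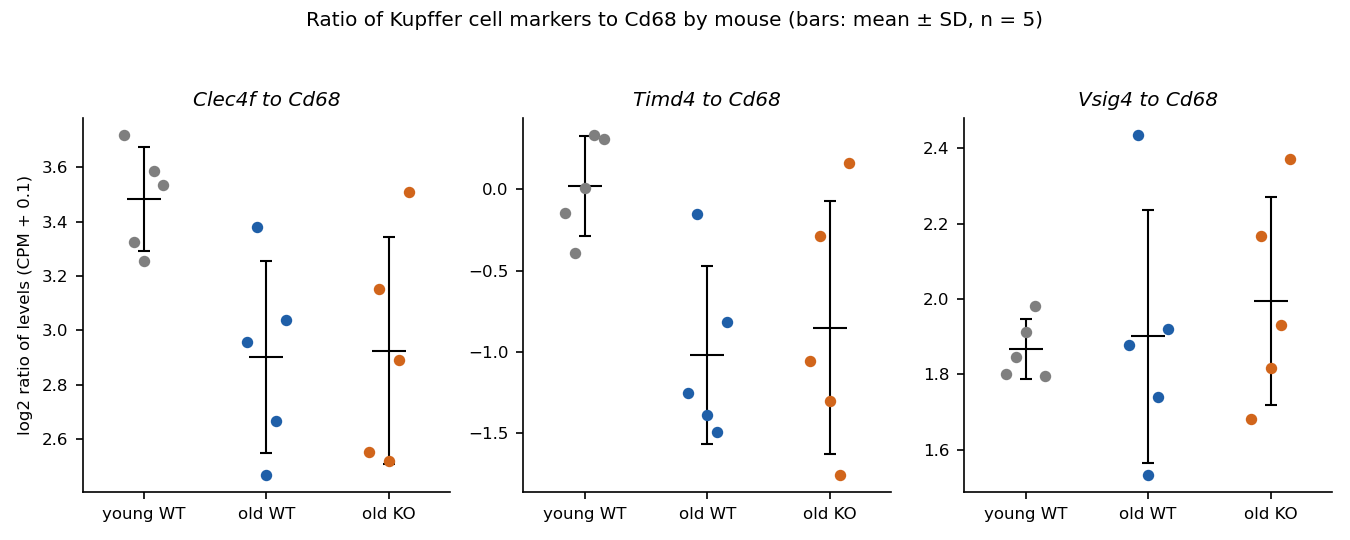
Log2 ratio of Clec4f, Timd4 and Vsig4 to Cd68 in each mouse (vertical axis, from CPM + 0.1), with the mean ± SD of each group (n = 5). The ratios of Clec4f and Timd4 are highest in young WT, at means of 3.48 and 0.02, and old WT and old KO means lie close together.

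The ligands of CSF1R were not called in any comparison. Csf1 was at 12.6, 15.1 and 13.4 CPM on average in young WT, old WT and old KO (genotype log2 fold change -0.18, adjusted p = 0.657), and Il34 at 1.69, 1.47 and 1.68 CPM (0.20, adjusted p = 0.790). Spi1, which encodes PU.1, fell by 1.22 in old KO against old WT (adjusted p = 0.0290), from 4.86 to 2.07 CPM. Tyrobp, the DAP12 adaptor that macrophage receptors signal through, fell by 1.05 (adjusted p = 0.0290) and was the second of 2 genes called among the 13 tested of the CSF1R axis and macrophage transcription factors. The median of that list was -0.18. With age Tyrobp rose by 0.63 (adjusted p = 0.0315), the single age call among the 13 genes, a share below the 9.92% of all genes called higher. That call was lost without young WT 1 or 2 or old WT 1, 4 or 10.

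Of 15 other genes known for high expression in Kupffer cells, 5 were called lower and 0 higher in old KO against old WT. The list median was -0.60, and 0.421% of all genes were called lower. The complement genes C1qb, C1qc and C1qa, made in liver mainly by macrophages, fell by 1.02, 0.99 and 0.91 (adjusted p = 0.0223, 0.0290 and 0.0459). Slc11a1, a metal transporter of phagosomes, fell by 1.18 (adjusted p = 0.0247). The fifth, Hmox1, which degrades haem, fell by 0.85 (adjusted p = 0.0484) and is named to complete the count. The list was not uniform, with 13 of the 15 below 0 and 2 above. Its uncalled genes ran from -0.96 for C6 to 0.12 for Cd207, with Clec1b at -0.39, Fcna at -0.41 and Nr1h3 at -0.04. The summed level of the list was between 569 and 859 CPM in old WT and between 570 and 687 CPM in old KO, so the ranges overlapped. Slc40a1 weighed most in that sum, with means of 305 CPM in old WT and 283 CPM in old KO. With age 2 of the 15 rose, Cd207 by 1.47 (adjusted p = 0.00486) and the iron exporter Slc40a1 by 0.75 (adjusted p = 0.00333), a share near the 9.92% of all genes called higher, and neither was called between genotypes (0.12 and -0.11). Among 12 scavenger receptors 1 was called lower in old KO, Clec7a, the beta-glucan receptor dectin-1 (-1.50, adjusted p = 0.0292), and the list median was -0.26.

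The genes whose levels moved most closely with the markers inside the groups, over all 15 libraries and with the markers excluded, were Cd180, Ptgs1, Emr4, Treml4, Cfp, Bank1, Sdc3 and C1qc, with correlations to the mean marker level from 0.97 for Cd180 down to 0.92 for C1qc. Treml4, Cfp and C1qc were called lower in old KO against old WT, by 1.19, 1.08 and 0.99 (adjusted p = 0.0484, 0.0452 and 0.0290). The remaining 5 had log2 fold changes from -1.43 for Cd180 to -0.75 for Ptgs1 and did not pass. Like the markers, the 10 genes outside the marker set named here as lower in old KO against old WT (Spi1, Tyrobp, C1qa, C1qb, C1qc, Slc11a1, Hmox1, Clec7a, Treml4 and Cfp) all lost their calls without old WT 1, old WT 4, old KO 2, old KO 4 or old KO 6. Some also lost them without old KO 1 or 5, old WT 7 or 10 or young WT 1, 2, 3 or 4, and their adjusted p reached at most 0.141.

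Markers of other cells give the setting of the genotype difference, and their part in it was not tested. Of 8 pan-leukocyte genes 8 had a log2 fold change below 0 and 0 were called, with a median of -0.80. Laptm5 (-0.82, adjusted p = 0.0506) and Itgb2 (-0.97, adjusted p = 0.0725) came closest to a call. Ptprc, the CD45 gene, gave -0.78 (adjusted p = 0.323) and Lcp1 -0.07. The summed level of the 8 genes was between 158 and 196 CPM in old WT and between 117 and 162 CPM in old KO. Lcp1 weighed most in that sum, with means of 93.8 CPM in old WT and 89.4 CPM in old KO. No gene was called among recruited monocyte (median -0.43), lipid-associated macrophage (-0.57), neutrophil (-0.55), dendritic cell (-0.24), T and NK cell (-0.68) or B cell (-0.52) genes. With 0.421% of all genes called lower, lists this short would seldom hold a call. The genes below 0 were 7 of 10, 8 of 8, 3 of 4, 4 of 6, 8 of 8 and 6 of 6 in the same order. The 3 recruited monocyte genes above 0 were Cx3cr1 (0.12), F10 (0.08) and Fn1 (0.0017). F10 and Fn1 were by far the most abundant genes of that list, with old WT means of 355 and 1912 CPM. Gpnmb (-1.98, adjusted p = 0.194) and Chil3 (-1.85, adjusted p = 0.180) had fitted fold changes as large as those of the markers, without a call. The old WT levels of Gpnmb ran from 1.07 to 17.3 CPM, and its mean in old KO was 1.24 CPM. Mean levels of Chil3 were 0.867 CPM in old WT and 0.231 CPM in old KO. In the non-immune lists endothelial cells of the sinusoid had a median of -0.02, stellate cells -0.04, bile duct cells 0.04 and hepatocytes 0.26, with 0 called in each. Red blood cell genes were the exception, with 5 of 5 above 0 in old KO against old WT (median 1.07, 0 called), and a summed level of 72.6 to 149 CPM in old WT and 96.7 to 355 CPM in old KO. None of these lists had a gene at 0 throughout a group except the neutrophil list, with 1 such gene in young WT and 1 in old KO.

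**Figure D5:**
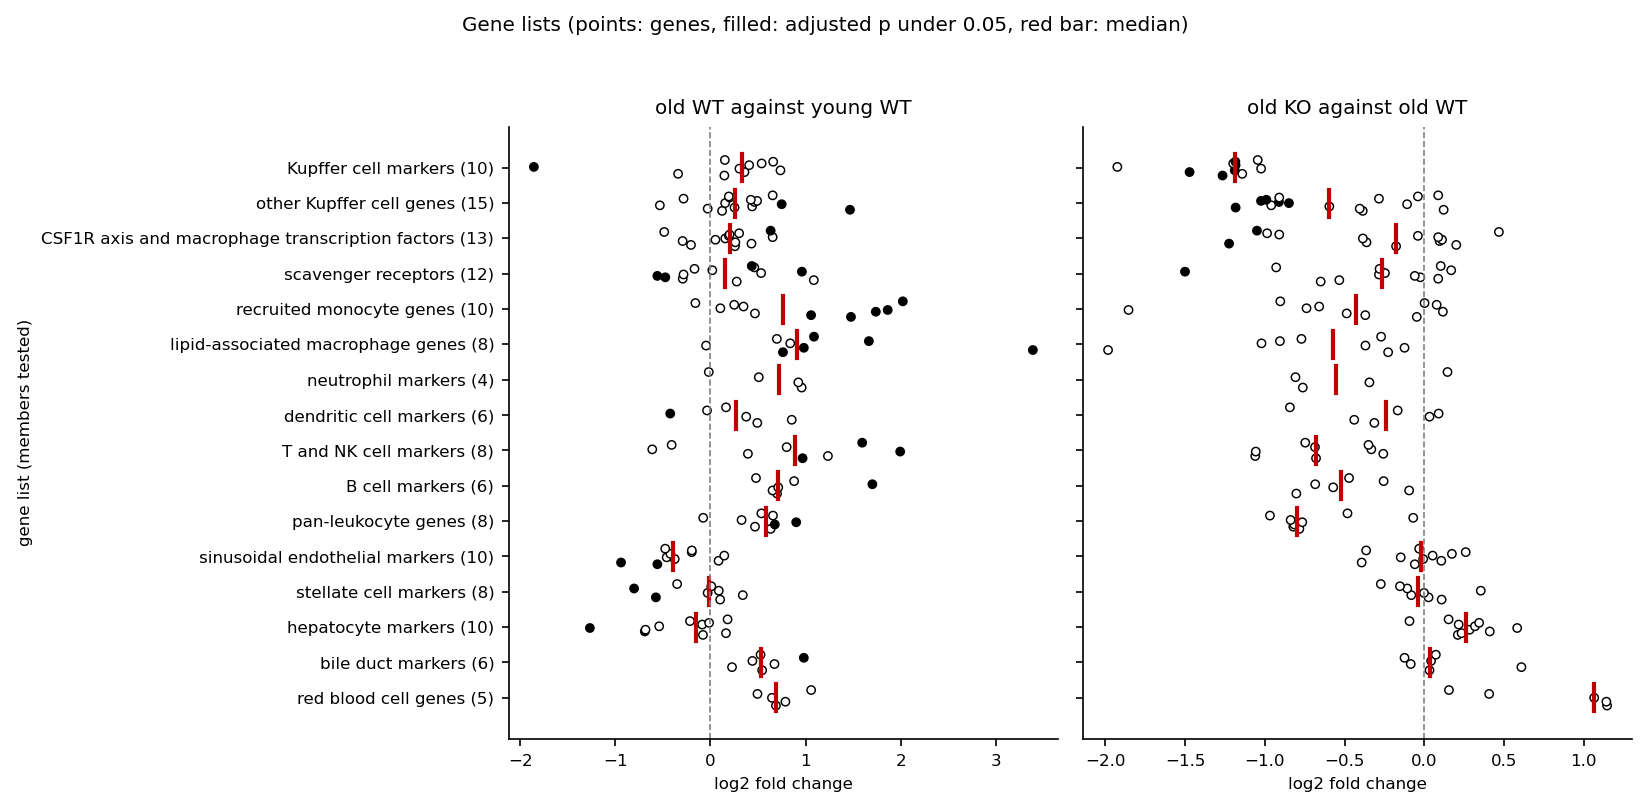
Log2 fold changes of the genes of 16 lists (points, filled where the adjusted p is below 0.05) with the list median as a red bar, for age on the left and genotype on the right. In the genotype panel the median of the 10 Kupffer cell markers is -1.19, below that of every other list.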

How the data were processed

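RNA-seq was made from flash-frozen livers of 15 mice (5 young WT, 5 old WT, 5 old KO). RNA was extracted with TRIzol, poly(A) libraries were made with a stranded kit and read single-end. The authors demultiplexed with CASAVA, aligned with TopHat2 2.0.11 to mm9 (NCBIM37) and used HTSeq to assign reads to genes. What was deposited is a table of raw counts per Ensembl gene, and the annotation and strand setting are not given in the sources used here. The submitters' notes also name DESeq2 1.18.1.

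Symbols and positions came from GENCODE M1, which placed 37205 of the 37991 identifiers. Of 149 entries in the gene lists, 146 matched by symbol and 2 by synonym. The markers and lists were chosen with earlier results of these data known. Counts were filtered with filterByExpr, scaled by TMM and tested with the edgeR 4.0.16 quasi-likelihood test in one fit of all 15 libraries with group as the only term (R 4.3.3), and p values were adjusted by Benjamini-Hochberg over 14258 genes. The common biological coefficient of variation was 0.189. The test was tried on simulated counts first. Ratios used log2(CPM + 0.1) and exact two-sided permutation tests over 252 assignments (SciPy 1.17.1). Levels between genes were compared per kilobase of merged exon. With 1 library per mouse, p values measure the spread between mice. No pair of libraries agreed within sampling noise.

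Alternatives were DESeq2 1.42.0, limma 3.58.1 voom, other scalings and filters, the libraries of one comparison alone, a replicate block and omission of each library. Omissions for called genes of the other lists were added after seeing the data. The text names all 10 markers, up to 4 called genes, largest change first, of the lists described, with Hmox1 beyond that, Rps6kb1, Csf1, Il34, Spi1 and the 8 genes most like the markers. Ptprc and Hmgxb3 were added because a result refers to them. C6, Clec1b, Fcna, Nr1h3, Laptm5, Itgb2, Lcp1, Ccr2, F10, Fn1 and Trem2 were added to show the spread within their lists. No protein sequences were used here.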

Additional observations from a re-analysis of the deposited data

How the results depend on the processing

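For each comparison 229 alternative log2 fold changes were computed over the 10 markers. All 229 were negative for old KO against old WT and for old KO against young WT. For the former 171 kept their side of the threshold, 55 lost a call and 3 gained one. For the latter 211 kept it and 18 lost a call. For age 206 kept it, 8 lost a call, 12 gained one and 3 changed sign. The count of called markers for age, 1, became 3 with DESeq2 and 3 with limma voom (Vsig4, Cd163 and Cd68 with DESeq2), and 0 when young and old WT were fitted without old KO or with at least 10 counts in every library, a filter that drops Cd163 itself. For genotype the count of 5 became 1 with limma voom and 7 with DESeq2. With 1 library left out at a time the counts ran from 0 to 3 for age, from 0 to 5 for genotype and from 4 to 6 for old KO against young WT. Without old WT 4 the age difference turned for Clec4f (range over omissions -0.0401 to 0.29) and Csf1r (-0.00512 to 0.30), both uncalled. With a pseudocount of 1 CPM the genotype difference in the ratio to Cd68 was -0.10 for Clec4f and -0.0153 for Vsig4. Over omissions these ratios ran from -0.12 to 0.14 for Clec4f, from -0.0821 to 0.40 for Timd4 and from -0.00122 to 0.23 for Vsig4, and the age ratio of Vsig4 from -0.10 to 0.13. The cause of these shifts was not tested.

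The labels do not say what the sample numbers mean, so whether they pair the mice is not known. Same-numbered libraries had correlations of deviations from -0.153 to 0.077 over all comparisons, with no such value taken for libraries of different numbers. With the number as a replicate block, which leaves out the information of libraries whose number occurs once (3, 7 and 10), the counts of called markers were 0 for age, 0 for genotype and 1 (Cd163) for old KO against young WT. Under the block the age difference of Timd4 was 0.35, and the genotype ratios were -0.28 for Clec4f, -0.44 for Timd4 and -0.14 for Vsig4. Among the markers, depth limits mainly Cd163, with 9 counts in old KO 6.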

Other observations

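Some genes of other macrophages and leukocytes were called higher with age, where 9.92% of all genes tested were, and the lists differed. Of 8 lipid-associated macrophage genes 5 rose in old WT against young WT livers (list median 0.91). Gpnmb, a lysosomal glycoprotein, rose by 3.39 (adjusted p = 0.00414), but its old WT levels ran from 1.07 to 17.3 CPM, and without old WT 7 the log2 fold change was 2.02 (adjusted p = 0.0012). Itgax, the CD11c integrin, rose by 1.67 (adjusted p = 0.00154) and Cd63 by 1.09 (adjusted p = 0.00537), and both calls held with each of the 15 libraries left out in turn. So did the call of Trem2 (0.76, adjusted p = 0.00252). Spp1 rose by 0.98 (adjusted p = 0.0262), a call lost without young WT 1 or 2 or old WT 5 or 7. It is also in the list of bile duct genes, of which 6 of 6 were above 0 with age and Spp1 was the 1 called. A bulk library does not show which cells its mRNA came from.

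Of 10 recruited monocyte genes 5 rose (median 0.76). The largest changes were in S100a4 (2.02, adjusted p = 0.0052), Chil3 (1.86, adjusted p = 0.0298), the fractalkine receptor gene Cx3cr1 (1.74, adjusted p = 0.00891) and Ly6c2 (1.48, adjusted p = 0.0181). The fifth, Ccr2, rose by 1.06 (adjusted p = 0.0485), a call lost in 10 of the 15 omissions. The call of Ly6c2 was lost without old WT 5 and that of Chil3 without young WT 1, 2, 3 or 4 or old WT 7 or 10, while without young WT 6 Chil3 rose by 2.49. Levels were low, with young WT and old WT means of 0.130 and 0.361 CPM for Ly6c2, 0.251 and 0.867 for Chil3, 0.339 and 1.37 for S100a4 and 0.564 and 1.86 for Cx3cr1. Of 8 T and NK cell genes 3 rose, Cd8a by 1.996 (adjusted p = 0.0185), Nkg7 by 1.596 (adjusted p = 0.0218) and Cd3e by 0.97 (adjusted p = 0.0473). The call of Cd8a was lost without old WT 5, that of Nkg7 without young WT 1 or 4 or old WT 5, and that of Cd3e in 11 of the 15 omissions. No mean level of these 3 genes in young or old WT exceeded the 1.88 CPM of Cd8a in old WT. Among 6 B cell genes 1 rose, Ms4a1 (1.70, adjusted p = 0.0324), lost without young WT 1 or 2 or old WT 1 or 4. Its mean level was 0.599 CPM in young WT and 1.92 CPM in old WT. None of 4 neutrophil genes and none of 6 dendritic cell genes was called higher by edgeR (at an unadjusted p below 0.05, 0 and 1 were), and the dendritic cell gene Zbtb46 fell by 0.42 (adjusted p = 0.0116). Whether the age difference of any of these lists differs from that of the Kupffer cell markers was not tested.

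Of 10 genes of the sinusoidal endothelium 2 were called lower with age, where 8.91% of all genes tested were. The list median was -0.40, and 2 of the 10 were above 0. Lyve1, which marks endothelial cells of the sinusoid, fell by 0.94 with age (adjusted p = 0.0167). Stab2, a scavenger receptor of the same cells, fell by 0.56 (adjusted p = 0.0358), a call lost without young WT 3 or 4 or old WT 5, 7 or 10. In old KO against young WT, where 1704 of 14258 genes were called higher, 4 of 5 red blood cell genes were. They were Hba-a1 (1.93, adjusted p = 0.00194), Hbb-b1 (1.83, adjusted p = 0.00193), Hba-a2 (1.71, adjusted p = 0.00658) and Alas2 (0.90, adjusted p = 0.0387), of which the globin genes have near-identical copies, so reads may be split between them. The call of Alas2 was lost without young WT 1, 2, 3 or 6 or old KO 2, 5 or 6.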
